A study of Homo sapiens with 6 samples.

Results

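The immediate early genes described here are FOS, FOSB, FOSL1, JUN, JUNB, JUND, EGR1, IER2, IER3 and KLF6. They were taken by gene symbol from the gene table of the study, in which these 10 of 38041 genes each had 1 row. RNA was sequenced from HCT116 cells, a human colorectal carcinoma line, in 2 groups of 3 libraries. The overEXP cells were stably transfected with EPHX2, and by their titles the NC cells received the empty vector. EPHX2 encodes soluble epoxide hydrolase, which turns epoxy fatty acids into diols. According to the study's methods the vectors were lentiviral and infected cells were selected with puromycin. The treatment label of the NC cells, however, reads untreated, and their protocol describes ordinary culture. The study's text speaks of 3 cell lines in each group without saying how they were derived. The 3 libraries of a group thus may or may not be independent lines, and each p-value rests on the spread among such libraries. In bulk RNA, fewer cells that make a transcript and less of it per cell cannot be told apart. The labels describe culture in medium with fetal bovine serum and no acute stimulus for either group.

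Immediate early genes are those that a cell transcribes within minutes of a growth factor, serum or stress signal, without first making new protein. Kinases such as ERK act on factors already bound at their promoters, chiefly SRF with its ETS partners and CREB, and the messenger RNAs are usually short-lived. FOS and JUN family proteins pair through leucine zippers to form AP-1, EGR1 and KLF6 are zinc finger factors, and IER2 and IER3 are small response proteins that lack a classical DNA-binding domain. In colorectal carcinoma cells with mutant RAS, such as HCT116, FOSL1 is known as the FOS family member kept high by steady ERK signaling.

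Promoter sequences were searched for signal-responsive elements, and of those sought only the short string TGACG was shared among members. RefSeq windows on GRCh38.p14, from 250 bases before to 50 after the start, were matched for 8 of the 10 members, FOSL1 and IER3 being the others. The bases TGACG, the core of the cyclic AMP response element, were found on either strand in 7 of these 8 windows, against 24.6% of 35116 promoters. Those promoters were not matched to the members for G and C content. The exception was KLF6, and a window without these letters says nothing about CREB there. The full element TGACGTCA was in the JUND window alone among the members and in 1.85% of all promoters. The CArG box, to which SRF binds, was in the EGR1 window alone, in 2 copies, and in 1.29% of all promoters. The AP-1 site TGACTCA and the EGR1 site GCGTGGGCG were in none of the 8 windows (4.95% and 0.795% of all promoters). Only exact matches inside these windows were sought. An absence therefore does not show that a gene lacks such a site, which may lie farther out or differ in its letters. Each TGACGTCA contains TGACG on both strands. The stretches of EGR1 (chr5:138465329-138465432, plus strand), FOS (chr14:75278749-75278783, plus strand) and JUN (chr1:58784151-58784185, minus strand) are shown because they hold the CArG boxes and the TGACG cores of the best-known members. Capitals mark those matches, and CGTCA is TGACG on the other strand.
EGR1: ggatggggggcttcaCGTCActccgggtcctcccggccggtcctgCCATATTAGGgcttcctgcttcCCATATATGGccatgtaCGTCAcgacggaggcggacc
FOS: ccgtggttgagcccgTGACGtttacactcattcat
JUN: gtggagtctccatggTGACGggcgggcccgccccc
A match is a description of the sequence and not evidence of binding in these cells.

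Values are FPKM, fragments per kilobase of exon scaled to the mapped reads of each library, as deposited. EPHX2 had 157, 162 and 181 FPKM in the overEXP libraries, against 1.53, 1.96 and 1.5001 FPKM in the NC libraries, and every overEXP library was far above every NC library. Summed FPKM ranged from 288471 to 321825 in overEXP and from 277441 to 282322 in NC, and mitochondrially encoded RNA took 34.9% to 39.9% of it in overEXP and 29.6% to 34.6% in NC. All 7 epithelial markers, among them EPCAM and KRT18, were at 1 FPKM or more in every library. The overEXP replicate 2 library stood apart, since 14 of 15 markers of differentiated colon epithelium reached 1 FPKM there and 1 of 15 in each other library. Their summed level was 359 FPKM in overEXP replicate 2, against 3.09 to 4.12 FPKM in the other 5 libraries. Fibroblast and immune markers summed to 12.5 and 14.7 FPKM there, against at most 3.58 and 7.58 FPKM elsewhere, and endothelial markers summed to at most 0.482 FPKM in all 6. In NC replicate 1, transcripts rich in G and C were higher than in the other NC libraries, as described with the JUN family. The read depth is unknown, so no counting error can be given.

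Of the 10 members, FOSL1 and KLF6 were lower in overEXP than in NC cells, JUN was lower in each overEXP library without passing the test, and the other members were not called. With a minimum of 1 FPKM in 3 or more libraries, 9 members were tested and FOSB was not. By limma on log2(FPKM + 1), with Benjamini-Hochberg adjustment over the 12281 genes tested, 2 of these 9 were lower and none higher at an adjusted p under 0.05. At an unadjusted p under 0.05, 3 were lower and 0 higher, beside 16.4% and 6.55% of all genes. Over all genes tested, 4.23% were called, 2.98% as lower and 1.25% as higher. The members' median log2 fold change was -0.21, beside -0.05 over all genes. The groups did not overlap for 4 of the 9, with 3 lower and 1 higher in overEXP, beside 30.9% of all genes, 21.7% lower and 9.23% higher. The balance of calls moved with the scaling. Of 520 calls over all genes, 70.4% were lower in overEXP, against 90.1% after rescaling to equal sums (TPM), 51.0% after median-of-ratios scaling, 54.5% after quantile normalization and 49.1% after removal of the GC trend. The median of all genes lay at -0.20 after rescaling to TPM, and all 9 members tested had a lower fold change there than without rescaling, FOS the least (0.35 against 0.38).

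**Figure D1:**
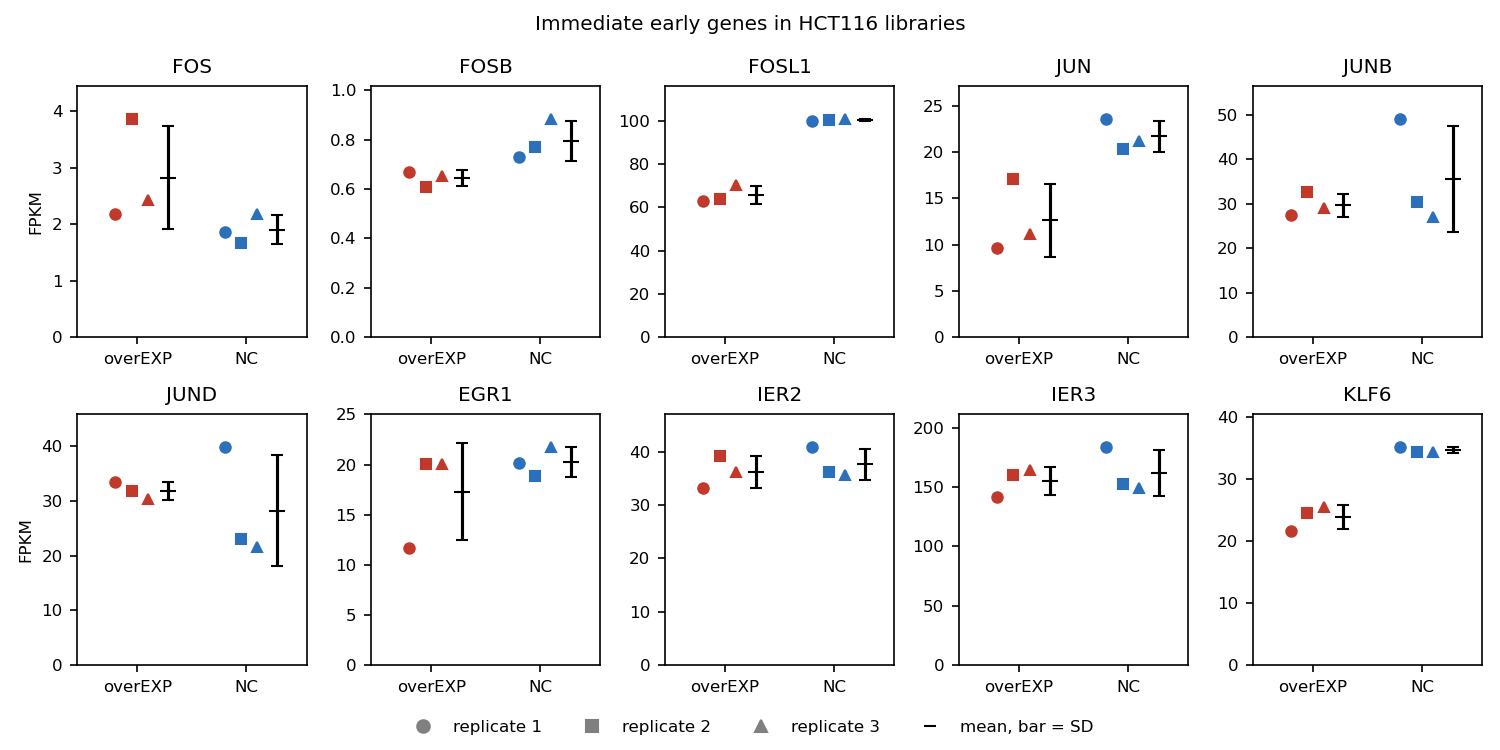
FPKM of the 10 members in the 3 overEXP libraries (red) and the 3 NC libraries (blue), with 1 panel per gene, symbols for the replicate number and the mean and SD beside the points. FOSL1 sits between 62.9 and 70.3 in overEXP and between 100.1 and 100.98 in NC, while NC replicate 1 stands above the other NC libraries for JUNB and JUND.

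FOSL1 (ENSG00000175592), on the minus strand of chromosome 11 from 65892049 to 65900573 of GRCh38 in GENCODE v44, encodes FRA-1. It had 62.9, 63.8 and 70.3 FPKM in overEXP replicates 1 to 3, against 100.1, 100.4 and 100.98 FPKM in NC replicates 1 to 3. The groups were well apart, and the NC libraries were nearly equal. The mean was 65.6 ± 4.02 FPKM in overEXP and 100.5 ± 0.426 FPKM in NC (SD, n = 3 each), a ratio of 0.653. The log2 fold change was -0.61 (standard error 0.07, 95% interval -0.77 to -0.45, adjusted p = 0.00827 from limma), and FOSL1 stood at rank 40 of 12281 genes by p. The call was lost without NC replicate 2 (adjusted p = 0.0573) or NC replicate 3 (0.0535), with the log2 fold change at -0.61 both times, and with no filter on FPKM (0.0571). It held under every scaling tried, with log2 fold changes from -0.76 to -0.49.

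FOS (ENSG00000170345; chromosome 14, 75278826 to 75282230, plus strand), the founding partner of JUN, was far less abundant. It had 2.18, 3.87 and 2.43 FPKM in overEXP, against 1.86, 1.67 and 2.18 FPKM in NC. The overEXP replicate 2 library was the highest library, and the lowest overEXP value was just above the highest NC value. FOS had a log2 fold change of 0.38 (standard error 0.17, 95% interval -0.0094 to 0.76), which did not pass (adjusted p = 0.226 from limma). Without overEXP replicate 2, the library with the colon epithelium markers, it was 0.19. FOSB (ENSG00000125740; chromosome 19, 45467995 to 45475179, plus strand), a relative made mainly after stimulation, had 0.669, 0.607 and 0.654 FPKM in overEXP, against 0.730, 0.770 and 0.884 FPKM in NC. Every overEXP value was under every NC value, at levels too low for the test.

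JUN (ENSG00000177606; chromosome 1, 58776845 to 58784048, minus strand) is the main transactivating partner in AP-1 and is encoded in a single exon. It had 9.67, 17.1 and 11.1 FPKM in overEXP, against 23.6, 20.4 and 21.2 FPKM in NC. All overEXP libraries were under all NC libraries, but overEXP replicate 2 was much closer to them than the other overEXP libraries. The means were 12.6 ± 3.94 FPKM in overEXP and 21.7 ± 1.68 FPKM in NC (SD, n = 3 each). The log2 fold change of -0.77 had the largest size among the members but also a standard error of 0.18 (95% interval -1.20 to -0.35), and it missed the threshold (adjusted p = 0.0601 from limma). JUN passed without overEXP replicate 2 (-0.998, adjusted p = 0.0185), after rescaling to TPM (-0.95, adjusted p = 0.0144) and after mitochondrial genes were left out of the sums (-0.80, adjusted p = 0.0497). It did not pass under the other alternatives, where the adjusted p ran up to 0.257.

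JUNB and JUND, the relatives of JUN, varied widely among the NC libraries. JUNB (ENSG00000171223; chromosome 19, 12791486 to 12793315, plus strand) had 27.6, 32.6 and 29.0 FPKM in overEXP, against 49.2, 30.5 and 26.9 FPKM in NC. NC replicate 1 was the highest of all 6, and the other libraries of both groups overlapped. The log2 fold change of JUNB was -0.21 (standard error 0.20, adjusted p = 0.572 from limma) and turned to 0.05 without NC replicate 1. JUND (ENSG00000130522; chromosome 19, 18279694 to 18281622, minus strand), a JUN protein that most cells make without stimulation, had 33.5, 31.7 and 30.3 FPKM in overEXP, against 39.9, 23.1 and 21.6 FPKM in NC. Here NC replicate 1 was above, and NC replicates 2 and 3 below, every overEXP library. The log2 fold change of JUND was 0.22 (standard error 0.21, adjusted p = 0.555) and passed as higher without NC replicate 1 (0.49, adjusted p = 0.0496). It was 0.11 without NC replicate 2, 0.063 without NC replicate 3 and 0.087 after rescaling to TPM. JUNB and HOOK2 on the opposite strand share 259 bases of exon, and reads of the pair cannot be told apart if the library was not stranded, which the sources used here do not say. HOOK2 had 5.60 to 7.33 FPKM in overEXP and 6.06 to 6.80 FPKM in NC.

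NC replicate 1 differed from the other NC libraries with the GC content of transcripts. The canonical transcripts of JUNB and JUND hold 64.9% and 69.9% G and C, above 95.4% and 99.5% of the 12257 tested genes with such a transcript. In the fifth of these genes with the most G and C (58.7% to 83.9%), the median deviation of NC replicate 1 from the NC mean was 0.12 on log2(FPKM + 1), against -0.06 and -0.05 in NC replicates 2 and 3. Among the 565 genes at or above the GC of JUNB it was 0.21, and NC replicate 1 was the highest NC library for 89.4% of them. JUNB and JUND deviated by 0.51 and 0.54 in that library, more than these medians. The overEXP libraries varied with GC content too. From the fifth with the least G and C to that with the most, the median deviation went from 0.114 to 0.017 in overEXP replicate 3. It went from -0.104 to -0.055 in overEXP replicate 1 and from -0.015 to 0.021 in overEXP replicate 2. With the trend on GC removed from each library, a setting chosen after the data were seen, JUND was at 34.4, 34.2 and 33.0 FPKM in overEXP, against 30.9, 24.1 and 22.7 FPKM in NC. The groups then no longer overlapped, with a log2 fold change of 0.39 (adjusted p = 0.085 from limma). JUNB was at 29.8, 34.0 and 30.6 FPKM in overEXP, against 41.3, 30.9 and 27.2 FPKM in NC, with a log2 fold change of -0.05. FOSL1 and KLF6 were still called lower (log2 fold changes -0.49 and -0.49, adjusted p = 0.0142 and 0.00792). The part of GC content in the values of NC replicate 1 was not tested.

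**Figure D2:**
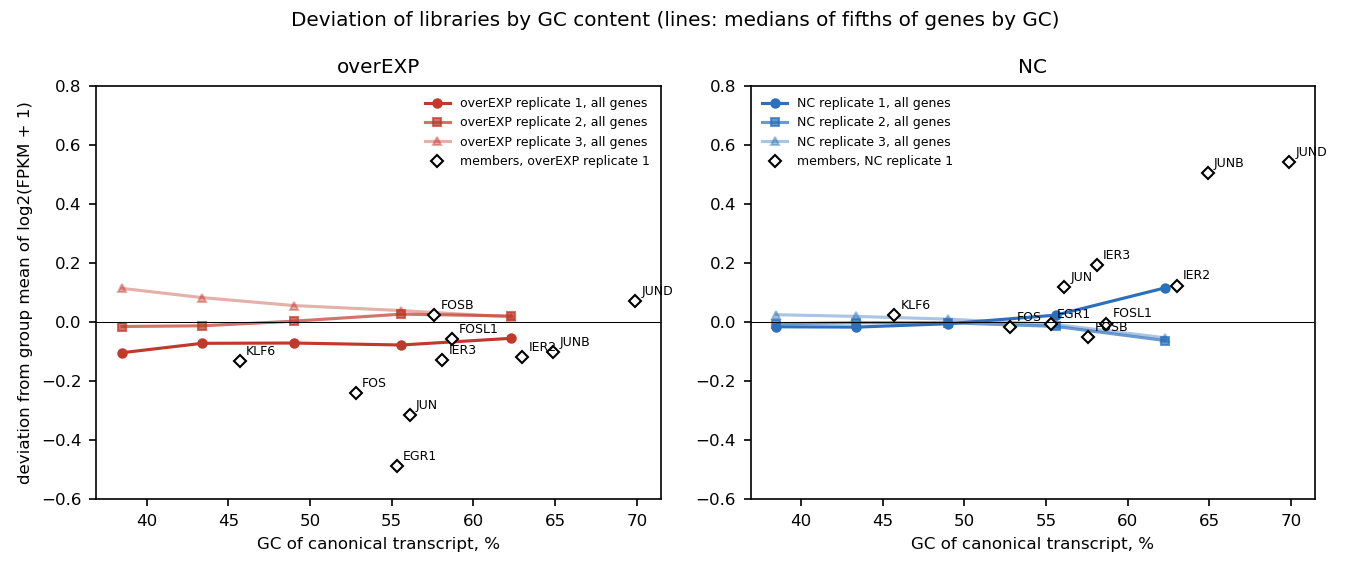
Deviation of each library from its group mean of log2(FPKM + 1) against the GC content of the canonical transcript, overEXP on the left and NC on the right. Lines join the medians of 5 equal bins of the 12257 genes ordered by GC, and diamonds are the members in replicate 1 of each group. JUNB and JUND stand at 0.51 and 0.54 in NC replicate 1, and EGR1 is the lowest member in overEXP replicate 1.

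KLF6 (ENSG00000067082; chromosome 10, 3775996 to 3785281, minus strand) encodes a Krüppel-like zinc finger factor known as a growth suppressor in several carcinomas. It had 21.6, 24.5 and 25.4 FPKM in overEXP, against 35.2, 34.3 and 34.3 FPKM in NC. As with FOSL1, the NC libraries lay close together and all overEXP libraries were under them. The means were 23.9 ± 1.99 FPKM in overEXP and 34.6 ± 0.515 FPKM in NC (SD, n = 3 each), a ratio of 0.689. KLF6 had a log2 fold change of -0.52 (standard error 0.07, 95% interval -0.70 to -0.35, adjusted p = 0.0165 from limma), at rank 116 of 12281. The call was lost with no filter on FPKM (adjusted p = 0.082), without overEXP replicate 2 (0.0562) and without NC replicate 1, 2 or 3 (0.0589, 0.0853 and 0.0791), while the log2 fold change stayed between -0.54 and -0.51 in these fits. KLF6 was called under all the scalings tried.

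EGR1 (ENSG00000120738; chromosome 5, 138465479 to 138469303, plus strand), the zinc finger factor whose promoter carries the pair of CArG boxes shown above, had 11.7, 20.1 and 20.0 FPKM in overEXP, against 20.1, 18.8 and 21.8 FPKM in NC. A single library, overEXP replicate 1, was low, and the other 5 overlapped. EGR1 had a log2 fold change of -0.25 (standard error 0.19, 95% interval -0.70 to 0.19, adjusted p = 0.459 from limma), and without overEXP replicate 1 it was -0.01. IER2 (ENSG00000160888; chromosome 19, 13150411 to 13154911, plus strand), a nuclear response protein, had 33.2, 39.2 and 36.2 FPKM in overEXP, against 41.0, 36.2 and 35.7 FPKM in NC. IER3 (ENSG00000137331; chromosome 6, 30743199 to 30744548, minus strand), which modulates ERK signaling and cell survival, had 142, 160 and 164 FPKM in overEXP, against 184, 152 and 149 FPKM in NC. The groups overlapped for both genes, with overEXP replicate 1 the lowest library and NC replicate 1 the highest. Neither passed (IER2 log2 fold change -0.05, 95% interval -0.26 to 0.15, adjusted p = 0.740; IER3 -0.06, -0.30 to 0.19, adjusted p = 0.784), and their signs turned under some scalings. Both overlap exons of opposite-strand long noncoding genes, which share 662 and 946 bases with IER2 and 440 and 85 bases with IER3.

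**Figure D3:**
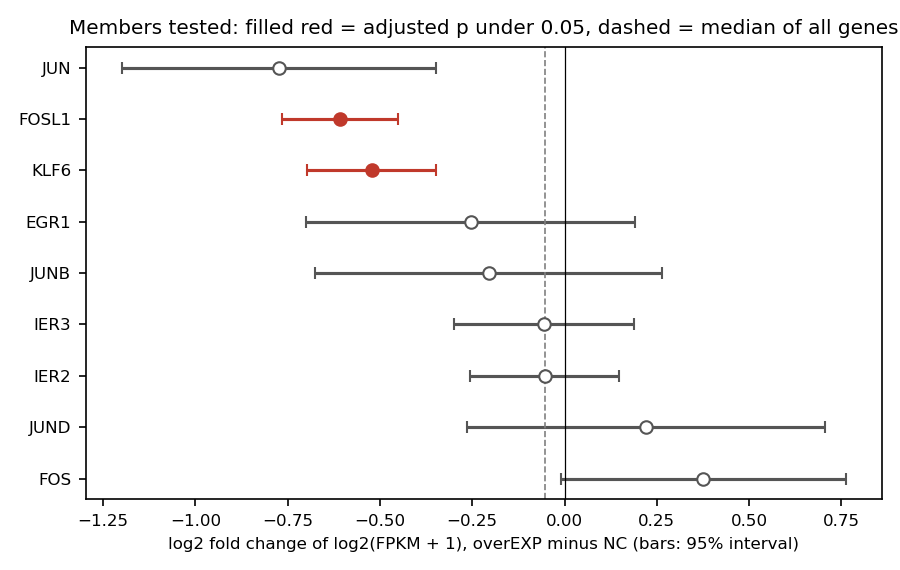
Log2 fold change of log2(FPKM + 1), overEXP minus NC, with 95% intervals from limma for the 9 members tested. FOSL1 (-0.61) and KLF6 (-0.52) are filled as past an adjusted p of 0.05, JUN has the largest size (-0.77) with a wide interval, and the dashed line is the median of all genes.

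The summed level of the FOS family, with FOSL2 added from the list of other AP-1 genes, was 72.6, 76.3 and 81.3 FPKM in overEXP, against 111, 112 and 112 FPKM in NC. FOSL1 made up 86.7%, 83.6% and 86.5% of this sum in overEXP, against 90.5%, 90.0% and 89.9% in NC. It was the main family member in every library, with a share that was lower in each overEXP library (p = 0.1 by an exact two-sided permutation of libraries, which with 3 against 3 can give no smaller value). The family sum and this share rest largely on the FOSL1 values given above and are not a separate result. FOSL2, a relative that is also kept on in growing cells, had 6.83, 8.06 and 7.91 FPKM in overEXP, against 7.93, 8.74 and 8.30 FPKM in NC. It did not pass (log2 fold change -0.12, adjusted p = 0.428 from limma). For the JUN family the sums were 70.7, 81.4 and 70.4 FPKM in overEXP, against 113, 73.9 and 69.7 FPKM in NC, and the groups overlapped. JUND made up 47.3%, 39.0% and 43.0% of this sum in overEXP, against 35.4%, 31.2% and 30.9% in NC. Its share was thus higher in each overEXP library, NC replicate 1 included (p = 0.1, exact two-sided permutation). JUN made up 13.7%, 21.0% and 15.8% in overEXP, against 20.9%, 27.5% and 30.4% in NC, with overlap between overEXP replicate 2 and NC replicate 1 (p = 0.2, exact two-sided permutation). These shares are of messenger RNA per length and do not give the makeup of the AP-1 protein.

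The order of levels was much the same in both groups at its ends. By mean FPKM, IER3 was first, FOSL1 the next, and FOS and FOSB were last in overEXP and in NC, each with ranges apart from its neighbor. In overEXP the order between them was IER2, JUND, JUNB, KLF6, EGR1 and JUN. The ranges of IER2 and JUND, of JUND and JUNB, and of EGR1 and JUN overlapped there. In NC it was IER2, JUNB, KLF6, JUND, JUN and EGR1, and the ranges of all neighbors among these overlapped.

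Within a group, the members differed in which library was highest. In overEXP replicate 1, 8 of the 10 were the lowest of the 3 overEXP libraries, JUND and FOSB being the exceptions, where 60.3% of all genes tested were lowest, and the median deviation from the group mean was -0.12 on log2(FPKM + 1), beside -0.08 for all genes tested. In overEXP replicate 2, 5 of the 10 were the highest, among them FOS and JUN, beside 27.8% of all genes. In NC replicate 1, 6 of the 10 were the highest of the NC libraries, beside 42.1% of all genes, whereas FOS, FOSB, FOSL1 and EGR1 were highest in NC replicate 3, beside 36.7%.

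By a fixed rule, the genes most like FOSL1 were those with the smallest root mean square difference from its profile of log2(FPKM + 1), centered on the mean of the 6 libraries. They were GPAT3, an acyltransferase of glycerolipid synthesis (0.030), KLHL21, an adaptor of a ubiquitin ligase used in cell division (0.031), VPS18, a lysosomal tethering protein (0.032), SYDE1, a GTPase-activating protein (0.043), and MAP2K3, the kinase that activates p38 (0.044). MAP2K3 had 21.7, 22.0 and 24.0 FPKM in overEXP, against 37.7, 35.5 and 37.1 FPKM in NC. Among the members, KLF6 was closest to FOSL1 (0.064), and FOS was farthest (0.539). Profiles of 6 libraries in 2 groups are alike whenever 2 genes differ between the groups by a similar size.

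Other immediate early genes outside the member list, where called, were also lower in overEXP. Like the members, this list was chosen with earlier results of these data known, so its counts are no independent support. Of 29 tested, 7 were lower in overEXP and none higher, beside 2.98% and 1.25% of all genes, and their median log2 fold change was -0.27. At an unadjusted p under 0.05, 15 were lower and 3 higher, where 16.4% and 6.55% of all genes were. PLK2, a stress-responsive polo-like kinase, had 18.5, 15.9 and 19.0 FPKM in overEXP, against 33.8, 32.6 and 31.9 FPKM in NC (log2 fold change -0.85, adjusted p = 0.00786 from limma). DUSP1, the phosphatase that switches off JNK, p38 and ERK, had 4.11, 4.24 and 4.14 FPKM in overEXP, against 7.58, 8.05 and 7.28 FPKM in NC (-0.74, adjusted p = 0.00786). CCN1, a secreted matrix protein, had 8.17, 10.4 and 10.3 FPKM in overEXP, against 18.2, 18.2 and 19.2 FPKM in NC (-0.89, adjusted p = 0.00826). For all 3 genes every overEXP library was well under every NC library, and each was called in 14 of 15 alternatives, the exception being the fit without a filter. Its relative CCN2 was lower by the test as well (-0.57, adjusted p = 0.0252), as were RHOB, PLK3 and the pseudokinase TRIB1, with log2 fold changes from -0.62 to -0.34. These 4 were less stable, being called in 4 to 10 of 15 alternatives. The count of lower genes was 4 without overEXP replicate 1, 3 without overEXP replicate 2 and 3 without NC replicate 1, 2 or 3. With the GC trend removed, 8 were called lower and 2 higher.

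**Figure D4:**
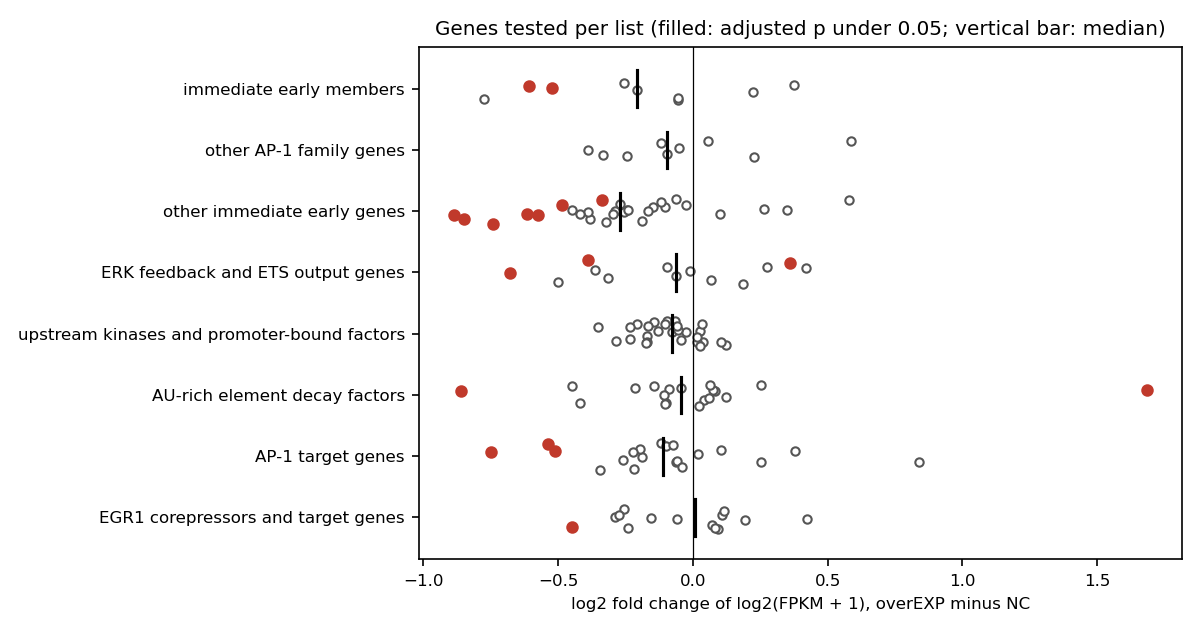
Log2 fold change of log2(FPKM + 1), overEXP minus NC, of every gene tested in the member list and in 7 related lists. Lists can share genes, such as ATF3 and ZFP36, and the member EGR1 also stands in the list of its corepressors and targets. Filled points passed an adjusted p of 0.05, vertical bars are medians, and points are spread vertically for legibility. The other immediate early genes have 7 filled points, all below 0, and the kinases and promoter-bound factors have none.

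Of 9 other AP-1 family genes tested, none was called in either direction by limma (2 higher and 3 lower at an unadjusted p under 0.05, beside 6.55% and 16.4% of all genes), with a median of -0.10. Under quantile normalization, without overEXP replicate 1 and with the GC trend removed, 1 was called higher. After rescaling to TPM, 1 was called lower. JDP2, a repressor that pairs with JUN proteins, had 2.13, 3.42 and 3.16 FPKM in overEXP, against 2.03, 1.38 and 1.35 FPKM in NC (adjusted p = 0.0836). ATF3, a stress-induced partner of JUN, had 9.52, 13.9 and 15.2 FPKM in overEXP, against 16.6, 17.3 and 16.7 FPKM in NC (adjusted p = 0.177). Of 27 kinases and promoter-bound factors upstream of the members, none was called (0 higher and 6 lower at an unadjusted p under 0.05, beside 6.55% and 16.4% of all genes), with log2 fold changes from -0.35 to 0.12. In this list 1 gene was called lower after rescaling to TPM, and 1 with the GC trend removed. SRF itself had 12.4, 13.7 and 13.8 FPKM in overEXP, against 17.6, 15.2 and 14.8 FPKM in NC (log2 fold change -0.23, adjusted p = 0.152).

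Of 13 genes of ERK feedback and ETS output tested, 2 were lower and 1 higher, beside 2.98% and 1.25% of all genes. At an unadjusted p under 0.05, 5 were lower and 2 higher, beside 16.4% and 6.55% of all genes. DUSP5, a nuclear phosphatase of ERK, had 42.1, 47.5 and 53.3 FPKM in overEXP, against 75.9, 77.2 and 76.6 FPKM in NC (log2 fold change -0.68, adjusted p = 0.0136 from limma). DUSP6, its cytoplasmic relative, was higher in overEXP, with 27.9, 28.3 and 30.1 FPKM in overEXP, against 23.4, 21.1 and 22.1 FPKM in NC (0.36, adjusted p = 0.0357). The groups were apart for both phosphatases. DUSP7 was also lower (-0.39, adjusted p = 0.048). The list's median was -0.06. The DUSP5 call was lost with no filter on FPKM, without overEXP replicate 2 and without NC replicate 2 or 3, and its log2 fold change stayed between -0.83 and -0.59 over all alternatives, with an adjusted p of up to 0.082. DUSP6 and DUSP7 were called in 5 and 2 of 15 alternatives, and DUSP6 was not called after rescaling to TPM. Without overEXP replicate 2, NC replicate 2 or NC replicate 3 no gene of the list was called lower.

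Among 20 AP-1 target genes tested, 3 were called, each lower in overEXP, beside 2.98% of all genes lower and 1.25% higher. At an unadjusted p under 0.05 the count was 5 lower and 3 higher, beside 16.4% and 6.55% of all genes, and the median was -0.11. Among them, PLAU, the urokinase plasminogen activator, had 18.5, 19.5 and 20.9 FPKM in overEXP, against 28.1, 28.6 and 30.1 FPKM in NC (log2 fold change -0.54, adjusted p = 0.0121 from limma). CCND1, cyclin D1, was lower as well (-0.51, adjusted p = 0.0226). All 3 calls were lost with no filter on FPKM and without overEXP replicate 2, NC replicate 2 or NC replicate 3, and 2 remained without NC replicate 1. Under median-of-ratios scaling 1 target gene was called higher, and with the GC trend removed 2 were. The collagenase MMP1 and 5 other matrix metalloproteases of the list were under the filter. Of 14 EGR1 corepressors and targets tested, 1 was lower and none higher, beside 2.98% and 1.25% of all genes. The list also holds EGR1 itself. The lower gene was PDGFB (log2 fold change -0.45, adjusted p = 0.0425 from limma), and its call held in 5 of 15 alternatives. At an unadjusted p under 0.05, 4 were lower and 0 higher, beside 16.4% and 6.55% of all genes. The corepressor NAB2, itself induced by EGR1, had 22.6, 21.3 and 26.1 FPKM in overEXP, against 24.2, 20.8 and 21.3 FPKM in NC.

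Messenger RNAs of immediate early genes are usually short-lived, and no half-life was measured here. Of 19 genes of AU-rich element binding and general RNA decay tested, 1 was lower and 1 higher, beside 2.98% and 1.25% of all genes. Their median log2 fold change was -0.04. At an unadjusted p under 0.05, 3 were lower and 2 higher, beside 16.4% and 6.55% of all genes. ZFP36L1, which recruits the deadenylation machinery to AU-rich messages, had 18.9, 22.3 and 23.1 FPKM in overEXP, against 39.2, 39.8 and 39.8 FPKM in NC (log2 fold change -0.86, adjusted p = 0.00799 from limma). The groups were far apart, and the call held in 14 of 15 alternatives. DIS3, a nuclease of the RNA exosome, had 24.6, 24.6 and 29.4 FPKM in overEXP, against 7.17, 7.71 and 7.38 FPKM in NC (1.69, adjusted p = 0.000616). The related ZFP36, an immediate early gene too, had 9.12, 16.9 and 11.4 FPKM in overEXP, against 15.2, 17.6 and 16.7 FPKM in NC, and did not pass (-0.42, adjusted p = 0.238).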

How the data were processed

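Total RNA of 6 libraries of HCT116 cells (3 overEXP, 3 NC) was sequenced on an Illumina NovaSeq instrument. Per the study's methods, the authors filtered reads with FastQC, mapped them to GRCh38 with HISAT2 (the submitters' processing notes give version 2.0.4), assembled each sample with StringTie and merged the assemblies with gffcompare. The deposited FPKM values are the authors' gene-level estimates from StringTie, with 38041 genes. FPKM accounts for length and mapped reads, and a few abundant RNAs can still shift the other genes. Fold changes, p-values and q-values of the authors' own comparison are in the same table and were not used. Read counts were not used here and depth is unknown, so precision comes only from the spread among 3 libraries per group, which limma partly pools over genes.

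The 12281 genes that reached 1 FPKM in 3 or more libraries were compared on log2(FPKM + 1), a scale that understates changes of low genes, using limma (version 3.58.1, R 4.3.3) and a variance trend. P-values were two-sided, adjusted by Benjamini-Hochberg and called under 0.05. The test was checked on simulated data. Loci, exons and GC content came from GENCODE v44 and promoters from RefSeq. The members, gene lists and tests were chosen with earlier results of these data known. Named were all members, up to 4 called genes of each list and direction by smallest adjusted p (all where 5 or fewer were called), and the 5 genes closest to the called member with the largest fold change. The values of 1 called gene are not reported here. RHOB, PLK3, TRIB1, JDP2, ATF3, SRF, FOSL2, HOOK2, NAB2, MMP1, ZFP36 and some marker genes were named after their values were seen. Alternatives were other scalings, offsets and filters, no variance trend, a replicate block, each library left out and, added after the data were seen, removal of a GC trend in each library (lowess, span 0.3).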

Additional observations from a re-analysis of the deposited data

How the results depend on the processing

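With each library left out in turn, the number of members lower in overEXP ranged from 0 to 2 (2 with all libraries) and the number higher from 0 to 1, the 1 being JUND without NC replicate 1. Without the filter on FPKM no member was called (0 lower), and over all genes 3 were higher and 2 lower of 38041. After rescaling to TPM and with mitochondrial genes left out of the sums 3 members were lower, JUN added. The remaining settings gave 2 lower. The log2 fold changes of FOSL1, KLF6, JUN and EGR1 were negative in all 15 alternatives, and those of FOS and JUND positive. EGR1 and FOS were called in none of these alternatives. With a library left out, the log2 fold change of JUNB ranged from -0.375 to 0.0468, that of IER2 from -0.112 to 0.0076 and that of IER3 from -0.112 to 0.0412. JUNB turned positive without NC replicate 1, and IER2 and IER3 without overEXP replicate 1 (0.0055 and 0.0095) or NC replicate 1. With median-of-ratios scaling IER2 was at 0.0147 and IER3 at 0.0152, and with the GC trend removed they were at 0.0924 and 0.0566. The cause of these turns was not tested. Over all genes, 44 to 476 were called with a library left out.

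The labels number replicates 1 to 3 in both groups. Deviations of same-numbered libraries correlated at 0.358, -0.0156 and 0.367 across genes. For overEXP replicates 1 and 3 the same-numbered NC library was the best match. The crossed values were -0.418 (overEXP 1 with NC 3) and -0.315 (overEXP 3 with NC 1). The overEXP replicate 2 library correlated best with NC replicate 3 (0.201). Nothing states that the numbers pair libraries, so the main fit took none as pairs. With a replicate block 2 members were lower and 0 higher, and 331 genes were called in place of 520, so no member's call changed.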
